A study of Mus musculus with 24 samples.

Results

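Protein-protected sites (PPSs) that were found in both replicates of undifferentiated MEL cells and at neither later time point are described here. MEL is a mouse erythroleukemia line, which matures along the erythroid path when DMSO is added to the medium. A PPS is a stretch of RNA that a nuclease spared when proteins were present and cut when they had been removed. Members were chosen by 3 measured properties. A day 0 PPS had to carry calls of replicate 1 and replicate 2, it could not be 20 to 40 nt long (the size of a ribosome footprint), and it could overlap no day 2 or day 4 PPS of any length on its strand. This gave 5123 sites, called lost sites below, of 35371 replicated day 0 sites of those lengths, or 14.5% (Wilson 95% interval 14.1 to 14.9). They are 5123 of 138689 PPSs in the day 0 list. The other 30248 replicated sites, called kept sites, overlapped a later PPS: 19891 at both days, 5826 at day 2 only and 4531 at day 4 only.

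Cells were formaldehyde-crosslinked before induction (day 0) and after 2 and 4 days in 2% DMSO. Each day has 8 libraries, namely 2 replicates digested with a nuclease specific for single-stranded RNA (ssRNase) or for double-stranded RNA (dsRNase), with proteins present or removed first. All groups come from this 1 leukemic line, and the labels do not say whether the replicates were separate cultures. The deposited lists are pooled by day, but the name field of each PPS gives the nuclease and replicate of every call merged into it, so a day has 4 call sets. The lists hold no reads per library or per site, and no measure of RNA abundance was used, so that a site without a protein, a transcript that is no longer made and a smaller share of cells making it cannot be told apart. Among erythroid marker genes, Gata1, Klf1, Tal1, Nfe2, Epor, Tfrc and Alas2 held PPSs of both replicates at day 0, and Slc4a1 held none until day 4. Zfpm1 held none at any day. Among marker genes of other blood cells, Mpo, Elane, Lyz2, Itgam, Cd3e, Cd4, Cd8a and Cd79a held no PPS at any day, while Pf4 (2 and 4 at day 0) and Itga2b (36 and 29) did.

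Proteins protect RNA in transit from transcription to decay: splicing factors and hnRNPs on introns, ribosomes and exon junction complexes on coding sequence, and regulators of stability and translation mostly on 3' UTRs. When erythroid precursors mature they stop dividing, shut off progenitor and leukocyte genes, and reduce the making of ribosomes. A site seen only before induction can therefore belong to an RNA of the progenitor state or to a binding event on an RNA that persists.

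The rule depends on where a PPS was called, so its symmetry was examined first. Replicated PPSs found at no other day made up 14.2% of 36787 at day 2 (13.9 to 14.6) and 14.5% of 43631 at day 4 (14.2 to 14.8). The day 0 share is close to both of these, so that being found at a single day was about as frequent at day 0 as after induction. Day 0 PPSs called in replicate 1 only were without a later PPS in 35.7% of 40146 cases, and those of replicate 2 only in 37.3% of 39390. These unreplicated sites are no members, and they serve below as a second set of day 0 sites that the replicate rule did not use. They were compared with the same later lists.

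One call set stood apart from the rest. Day 0 ssRNase replicate 2 had 38742 calls on plus and 19244 on minus, so that 66.8% were on the plus strand. The other day 0 call sets had 51.4% to 51.9%, and the later ones 43.4% to 51.5%, the lowest being ssRNase replicate 2 of day 4. Among sites with ssRNase calls only, 18.3% of 8967 plus-strand sites were lost (17.6 to 19.2) and 11.1% of 5626 minus-strand sites (10.3 to 11.9). Sites with dsRNase calls only showed no such gap, at 18.6% (17.1 to 20.1) and 18.4% (16.9 to 19.9). Lost sites were on the plus strand in 63.0% of cases and kept sites in 55.6%. Ignoring that call set left 2251 lost sites, all with a call of dsRNase replicate 2. Results by nuclease and class, and those of several genes and gene lists, are given without that call set or by strand. The remaining genes and lists are given with it only.

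Sequences of 8 lost sites show what was protected. The leading 5 are high-scoring lost sites of at most 200 nt that lie wholly in coding sequence (CDS) or wholly in an intron of 1 gene. Those with ssRNase calls only are the top 2 of each class, and the intron site with dsRNase calls only is the top one of its kind. They were read from the GRCm38 assembly (mm10) on the transcribed strand, 5' to 3', and capitals mark any of the 14 sequence words listed further below.
Plxna3, CDS, ssRNase, chrX:74335320-74335495, plus strand: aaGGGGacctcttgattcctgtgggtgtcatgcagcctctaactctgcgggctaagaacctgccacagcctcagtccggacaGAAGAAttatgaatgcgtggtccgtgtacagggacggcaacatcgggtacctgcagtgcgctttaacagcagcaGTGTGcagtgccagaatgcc
Pkd1l3, CDS, ssRNase, chr8:109640784-109640863, plus strand: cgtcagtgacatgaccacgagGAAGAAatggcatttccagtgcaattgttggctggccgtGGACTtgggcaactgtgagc
Jade1, intron, ssRNase, chr3:41568092-41568260, plus strand: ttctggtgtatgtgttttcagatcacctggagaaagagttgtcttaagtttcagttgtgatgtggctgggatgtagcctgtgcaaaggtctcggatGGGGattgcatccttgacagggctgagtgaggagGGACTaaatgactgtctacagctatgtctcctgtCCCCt
Plek, intron, ssRNase, chr11:17003744-17003808, minus strand: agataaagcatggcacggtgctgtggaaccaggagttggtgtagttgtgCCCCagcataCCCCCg
Aff3, intron, dsRNase, chr1:38510017-38510082, minus strand: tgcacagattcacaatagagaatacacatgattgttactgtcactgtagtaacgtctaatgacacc

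These 5 sites differ in how far away protection persisted. The Jade1 site, 169 nt with a score of 59.36, had a day 4 PPS 67 nt away and a day 2 PPS 68 nt away. The Pkd1l3 site, 80 nt with a score of 33.04, had none within 74506 nt. Aff3 (a subunit of a transcription elongation complex) had its nearest later PPS at 745 nt, Plxna3 (a semaphorin receptor) at 985 nt and Plek (pleckstrin, a protein kinase C substrate of platelets and leukocytes) at 2028 nt. The score is the enrichment value deposited by the authors, and merged PPSs appear to carry the sum of their calls' scores.

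The remaining 3 sequences lie where no GENCODE gene is annotated on the strand. They are the highest-scoring lost sites of at most 200 nt in each of the 3 largest such stretches, described below, and were chosen after their values were seen.
Stretch on chromosome 17, chr17:91394656-91394794, plus strand: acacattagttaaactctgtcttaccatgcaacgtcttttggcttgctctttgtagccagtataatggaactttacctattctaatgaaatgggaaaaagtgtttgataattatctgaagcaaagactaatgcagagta
Stretch on chromosome 12, chr12:77157360-77157547, minus strand: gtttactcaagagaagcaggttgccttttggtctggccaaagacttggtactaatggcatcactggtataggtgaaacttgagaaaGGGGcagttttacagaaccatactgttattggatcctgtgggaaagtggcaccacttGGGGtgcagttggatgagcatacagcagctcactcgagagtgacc
Stretch on chromosome 6, chr6:143843539-143843608, plus strand: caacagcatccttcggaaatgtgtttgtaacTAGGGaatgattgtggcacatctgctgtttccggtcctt

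Lost sites were smaller and more weakly supported than kept ones. Their median length was 72 nt (quartiles 59 and 93), against 86 nt for kept sites (67 and 116). The share lost was 22.9% of 2056 sites of 41 to 50 nt and 3.04% of 1250 sites over 200 nt. Length enters the rule, since a longer site has more room to overlap, and the 10 lost sites under 20 nt are the only ones below the excluded length class. When a later PPS had to cover at least 50% of the site, the order turned, with medians of 89 nt for lost and 82 nt for kept sites. Sites merged from 2 calls made up 81.3% of lost and 65.8% of kept sites. Among these, the median score was 13.6 for lost sites and 15.4 for kept sites. By score, the share lost ran from 30.8% of 2804 sites scoring under 12 to 1.57% of 1784 sites scoring 40 or more.

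Near the limits of the rule the calls were fine-grained. There were 38 lost sites of 41 nt, while 30 replicated sites of 40 nt without a later PPS were left out. A later PPS lay within 10 nt of 242 lost sites and directly beside 30 of them, and 255 kept sites owed their status to an overlap of 10 nt or less. The median distance from a lost site to the nearest later PPS was 311 nt (quartiles 74 and 1330), with 19.2% at 50 nt or less and 71.0% at 1000 nt or less. The nearest day 2 PPS was at a median of 439 nt and the nearest day 4 PPS at 850 nt. For 191 lost sites, or 3.73%, none lay within 100000 nt.

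**Figure D1:**
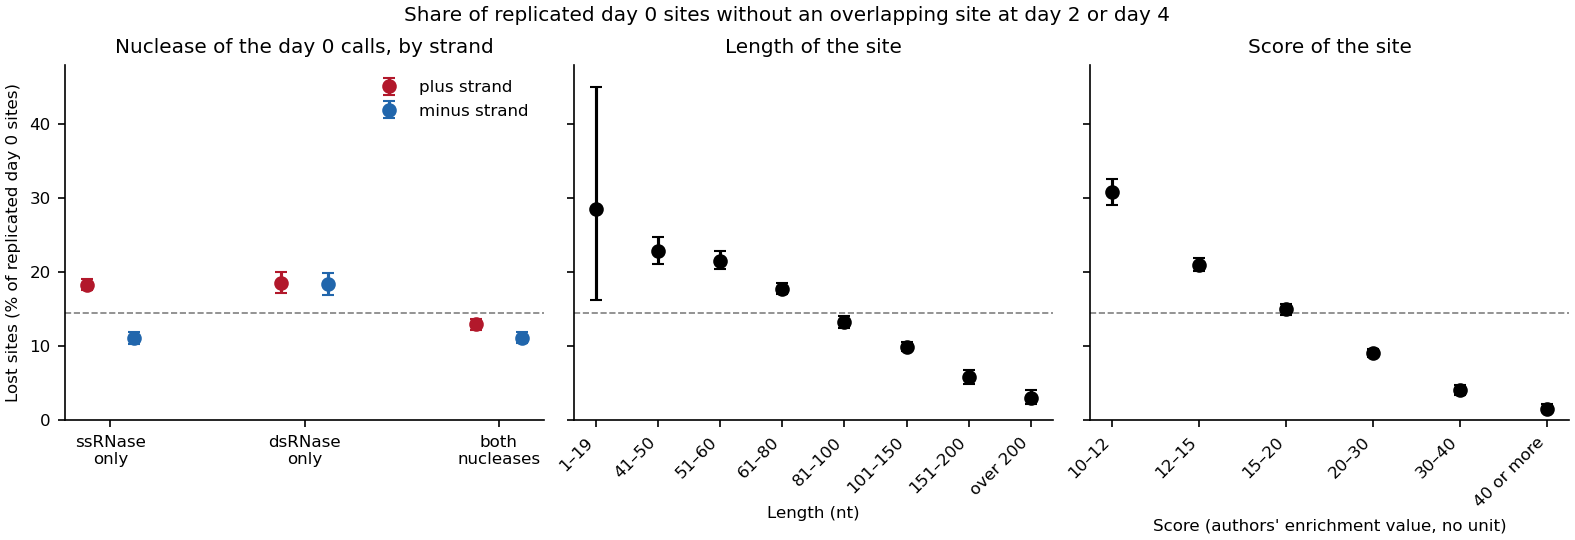
Percentage of replicated day 0 sites that were lost (y axis), by nuclease and strand (left, plus strand in red and minus strand in blue), length in nt (middle) and score (right). Bars are Wilson 95% intervals and the dashed line is the 14.5% over all sites. In the left panel ssRNase sites differ by strand, 18.3% against 11.1%, and the middle and right panels fall from the shortest and weakest sites to 3.04% and 1.57%.

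By nuclease, sites with dsRNase calls only were lost more often than sites with both on either strand, and sites with ssRNase calls only exceeded sites with both on the plus strand alone. The share lost was 18.5% of 5278 sites with dsRNase calls only (17.4 to 19.5), 15.5% of 14593 with ssRNase calls only (14.96 to 16.1) and 12.1% of 15500 with both (11.6 to 12.7). Over minus-strand sites, ssRNase calls only gave 11.1% (10.3 to 11.9) and both 11.2% (10.4 to 11.9), while over plus-strand sites the shares were 18.3% and 12.95%. The plus strand is where day 0 ssRNase replicate 2 had its surplus of calls. In numbers, 2268 lost sites had ssRNase calls only, 975 dsRNase calls only and 1880 both. The share of dsRNase-only sites was 19.03% among lost and 14.2% among kept sites, a difference of 4.81 points (Newcombe 95% interval 3.68 to 5.97). It was 2.43 points over plus-strand and 9.45 over minus-strand sites. Among sites that stay replicated without day 0 ssRNase replicate 2 it was 12.5 points, which is not the same comparison. Calls of that set still counted when the nuclease of a site was named. No site with ssRNase calls only stays replicated there, so dsRNase-only sites are set against sites of both nucleases alone. Sites whose replicates matched within no nuclease, for example ssRNase in replicate 1 and dsRNase in replicate 2, made up 20.2% of lost and 15.0% of kept sites. Calls of all 4 sets were present in 55 lost sites, or 1.07%, against 5.25% of kept sites. These intervals cover counting error only, and sites are not replicates. Unreplicated sites did not show a dsRNase excess, with differences of -0.484 points (-1.39 to 0.431) in replicate 1 and -0.600 points (-1.57 to 0.370) in replicate 2.

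By transcript class, lost sites touched coding sequence less often than kept sites did. A site was counted in every class it touches, so 1 site can add to both CDS and intron. CDS was touched by 1690 lost sites, or 33.0%, against 39.6% of kept sites, a difference of -6.59 points (-7.98 to -5.18). The 5' UTR share was 4.10% against 5.66%, a difference of -1.56 points (-2.13 to -0.926). Of lost sites 9.76% touched both a CDS and an intron, against 14.9% of kept sites. Sites that touched a CDS and no intron differed by -1.40 points (-2.64 to -0.130), a smaller gap than for all CDS sites.

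The CDS difference held its sign in both nucleases and on both strands. It was -7.17 points with ssRNase calls only and -4.38 points with dsRNase calls only, -7.42 points for plus-strand and -4.71 points for minus-strand sites, and -4.38 points without day 0 ssRNase replicate 2. Within the genes that held both lost and kept sites it was -3.72 points (-5.36 to -2.06). It was not seen, at 0.521 points (-0.584 to 1.63), when a later PPS had to cover at least 50% of the site to count, or, at 0.557 points, when only later PPSs with both replicates counted. Among unreplicated day 0 sites the CDS share of sites without a later PPS was lower by a similar or larger amount, at -8.65 points (-9.58 to -7.71) in replicate 1 and -11.9 points (-12.8 to -10.9) in replicate 2.

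Sites that touched introns or 3' UTRs gave no difference that held across settings. Introns were touched by 2980 lost sites, or 58.2%, against 58.5% of kept sites (-0.294 points, -1.76 to 1.16). Sites confined to introns, with no exon class, made up 44.4% of lost and 38.2% of kept sites. Their difference of 6.22 points (4.76 to 7.69) was not run under the other settings. With genes of 10 or more lost sites left out, the difference for sites that touch an intron was -5.48 points. With each gene counted as 1 value it was 4.03 points. Among unreplicated day 0 sites it was 6.61 points in replicate 1 and 9.46 points in replicate 2, and that of 3' UTRs was -3.58 and -4.29 points. The 3' UTR share was 18.2% against 19.4% (-1.18 points, -2.31 to -0.0139), and its sign turned on the minus strand (1.28 points) and without day 0 ssRNase replicate 2 (0.653 points). Exons of noncoding RNAs were touched by 1.97% of lost and 3.35% of kept sites. Intergenic sites, on neither strand of a gene, were lost most often of these classes, in 279 of 1306 cases or 21.4%, and 37 of the 84 with dsRNase calls only were lost. Lost sites without a gene on their strand were clustered, with 57 and 36 in the stretches on chromosomes 17 and 12 described below. Every replicated site of these stretches was lost, and the intergenic share without them was not computed.

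**Figure D2:**
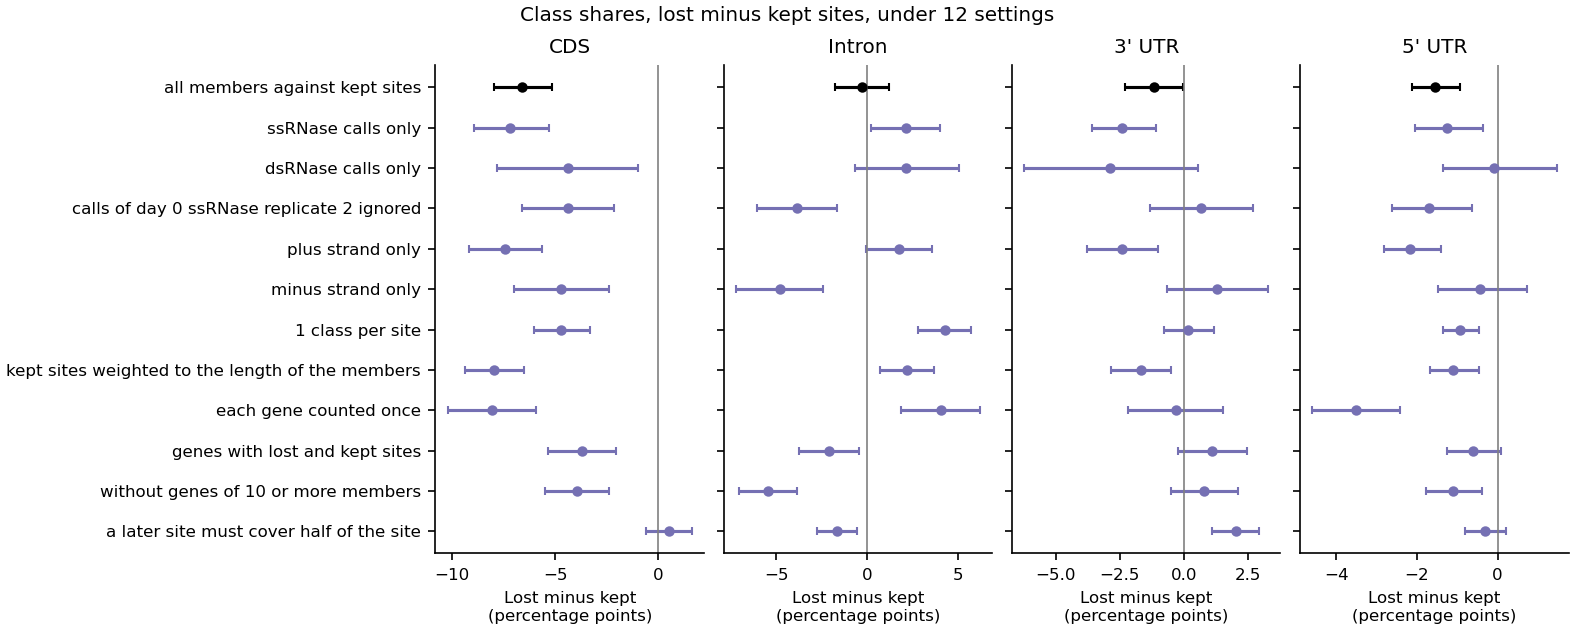
Share of lost minus share of kept sites (x axis, percentage points) that touch CDS, introns, 3' UTRs and 5' UTRs, under 12 settings (rows), with 95% intervals of the difference. The CDS points lie between -8.06 and -3.72 in all rows but the lowest, at 0.521, where a later site must cover at least 50% of the day 0 site, while the intron and 3' UTR points fall on both sides of 0.

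Genes were assigned from GENCODE release M21 on the strand of the site. Of lost sites, 4624 touched exactly 1 gene, 132 several and 367 none. The 4624 sites lay in 2309 genes, of which 1517 held a single one and 44 held 10 or more. Those 44 genes held 884 lost sites, or 19.1%, and 32 of them are on the plus strand, against 3165 of the 6069 genes with a replicated day 0 site. Protein-coding genes lost 14.4% of 30545 replicated sites. Genes classed as lincRNA, long RNAs between genes, lost 30.7% of 485, and 149 lost sites lay in 36 of them. Without the lincRNA Gm49454, described below, the share was 22.6% of 425, and without Pvt1 as well 21.2% of 330.

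Nearly all of these genes still held some later PPS, which was the case for 97.1% of the 4756 lost sites that touch a gene (96.6 to 97.6). At day 2 this share was 96.95% and at day 4 it was 91.8%. For kept sites, which overlap a later PPS by definition, the shares were 99.94% and 99.4%. Lost sites often lay side by side. In 30.8% of the 3627 cases where a lost site was followed in its gene by another replicated site, that site was lost as well, against 11.2% of 22232 cases after a kept site. Of 1893 genes with 5 or more replicated day 0 sites, 737 lost none, 100 lost at least 50% and 10 lost all. Unreplicated sites of the same genes showed the same order. The genes were chosen by loss against the same later lists, so this order is a description. In the 100 genes, 74.5% of 1159 sites of replicate 1 only and 77.9% of 1269 sites of replicate 2 only had no later PPS, against 31.7% and 33.5% in the other 1793 genes.

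The genes with the most lost sites were large and lost them in introns. Lrmda, named for a role in melanocyte differentiation (chromosome 14, 22019712 to 23056085, plus strand), held 66 lost sites of 547, or 12.1%, which is below the 14.5% of all replicated sites, so it leads by its number of sites. Its PPSs with a call of replicate 1 and of replicate 2 numbered 923 and 1034 at day 0, 817 and 847 at day 2, and 742 and 557 at day 4. All 66 were intronic, and 11 remained without ssRNase replicate 2. The loss was uneven along the gene. In its leading 250 kb, a boundary set after the map was drawn, 22 of 61 replicated sites were lost, or 36.1%, against 9.05% of 486 in the rest. PPSs of replicate 1 and 2 in that stretch fell from 127 and 179 at day 0 to 42 and 26 at day 4, while the rest went from 796 and 855 to 700 and 531.

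St6galnac3, a sialyltransferase (chromosome 3, 153198266 to 153725174, minus strand), held 54 lost sites of 188, of which 53 touched an intron. Its PPSs in replicates 1 and 2 went from 415 and 287 at day 0 to 211 and 232 at day 2 and to 49 and 25 at day 4. The replicates of the 3 days did not overlap, which is a description, since the gene was chosen by its number of lost sites. Without ssRNase replicate 2, 20 of its lost sites remained. Of its unreplicated day 0 sites, 129 of 205 in replicate 1 and 57 of 86 in replicate 2 had no later PPS.

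Transcription factors of blood precursors were among the leading genes. Bcl11a, a repressor of fetal globin genes (chromosome 11, 24078056 to 24174123, plus strand), held 49 lost sites of 130. It had 199 and 235 PPSs in the day 0 replicates, 91 and 110 at day 2, and 15 and 7 at day 4. Nfia, a nuclear factor that acts in erythroid commitment (chromosome 4, 97772734 to 98118874, plus strand), held 41 of 84, all intronic. Its PPSs numbered 161 and 197, then 56 and 55, then 16 and 15. Both genes showed a stepwise fall with no overlap between days. They were chosen by their number of lost sites, so this fall is a description. Without ssRNase replicate 2, 10 lost sites of Bcl11a and 11 of Nfia were left. Spi1, which encodes PU.1, the factor whose activity blocks MEL cells from maturing, lost 9 of 9 replicated sites. It had 16 PPSs in each day 0 replicate, 3 and 2 at day 2, and 1 and 0 at day 4, and 5 of its 9 lost sites remained without ssRNase replicate 2.

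Bmp2k, a kinase that acts on clathrin-coated vesicles (chromosome 5, 96997689 to 97091867, plus strand), held 32 lost sites of 88, and 5 remained without ssRNase replicate 2. Its PPSs numbered 155 and 180 at day 0, 57 and 58 at day 2, and 76 and 52 at day 4, so its later days overlapped. Among noncoding genes, Pvt1, the long RNA beside Myc, held 26 of 95, and 7 of the 26 remained without ssRNase replicate 2. Its 201 and 199 PPSs at day 0 became 164 and 142 at day 2 and 37 and 23 at day 4. Ptprv, a receptor phosphatase gene annotated as noncoding, lost 6 of 7, and Lockd, a long RNA beside Cdkn1b, lost 4 of 15 and held no PPS at day 4 (20 and 22 at day 0, 17 and 15 at day 2). Gm49454, a lincRNA on chromosome 10 (67297406 to 67418927, plus strand) named after its values were seen, lost 53 of 60. It held 98 and 121 PPSs at day 0, 9 and 7 at day 2 and 1 and 3 at day 4.

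Among genes with the most exonic lost sites, 3 of 5 held no PPS at day 4. Mdn1 (midasin, an ATPase of large ribosomal subunit assembly; chromosome 4, 32657119 to 32775217, plus strand) held 24 lost sites of 51, of which 22 touched the CDS. Its PPSs numbered 73 and 98 at day 0, 26 and 28 at day 2, and 24 and 10 at day 4, and 13 lost sites remained without ssRNase replicate 2. Avil (advillin, an actin-binding protein) lost 11 of 16 and had 28 and 25 PPSs at day 0, 2 and 4 at day 2 and none at day 4. Only 1 of its lost sites remained without ssRNase replicate 2. Plekha1, a phosphoinositide-binding adapter, lost 11 of 12, with 8 in the 3' UTR. It had 23 PPSs in each day 0 replicate, 1 in each at day 2 and none at day 4.

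Dock8, a guanine nucleotide exchange factor of leukocytes, lost 12 of 15 sites and went from 34 and 47 PPSs to 8 and 9 and then to 2 and 5. Kif21b, a kinesin, lost 9 of 9. It went from 20 and 29 PPSs to 4 and 2 at day 2 and to none at day 4. In each of these 5 genes, which were chosen by their lost sites, both day 0 replicates exceeded all 4 later ones. All 5 are on the plus strand, where day 0 ssRNase replicate 2 had more calls. Without that call set, 5 lost sites remained in Plekha1, 5 in Dock8 and 2 in Kif21b. Its part in their rank was not tested.

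In 80 genes with lost sites, 131 in all, no PPS of any length remained at day 2 or day 4. The 5 protein-coding ones with the most lost sites include proteins of leukocytes, although the leukocyte markers listed above, from Mpo to Cd79a, were at 0. Ankrd36, an ankyrin repeat gene (chromosome 11, 5569684 to 5689337), lost 12 of 12 and had 29 and 43 PPSs at day 0. Lcp2 (SLP-76, an adapter of antigen receptor signalling) lost 6 of 6, with 13 and 15 PPSs. Lcp1 (L-plastin, an actin bundler of leukocytes) lost 5 of 5, with 14 and 12 PPSs, and all 5 lost sites had dsRNase calls only. Rin3, an exchange factor for Rab5 GTPases, lost 5 of 5 with 14 and 18 PPSs, and Gml2, a gene of the Ly6 family, lost 4 of 4 with 6 in each replicate. Their unreplicated sites went the same way, with 16 of 16 and 26 of 26 in Ankrd36 lacking a later PPS. These counts follow from the choice of genes without later PPSs and are a description. All 5 are on the plus strand, as are 50 of the 80. Without ssRNase replicate 2, 2 lost sites remained in Ankrd36, 1 in Lcp2, 5 in Lcp1, 2 in Rin3 and 3 in Gml2.

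**Figure D3:**
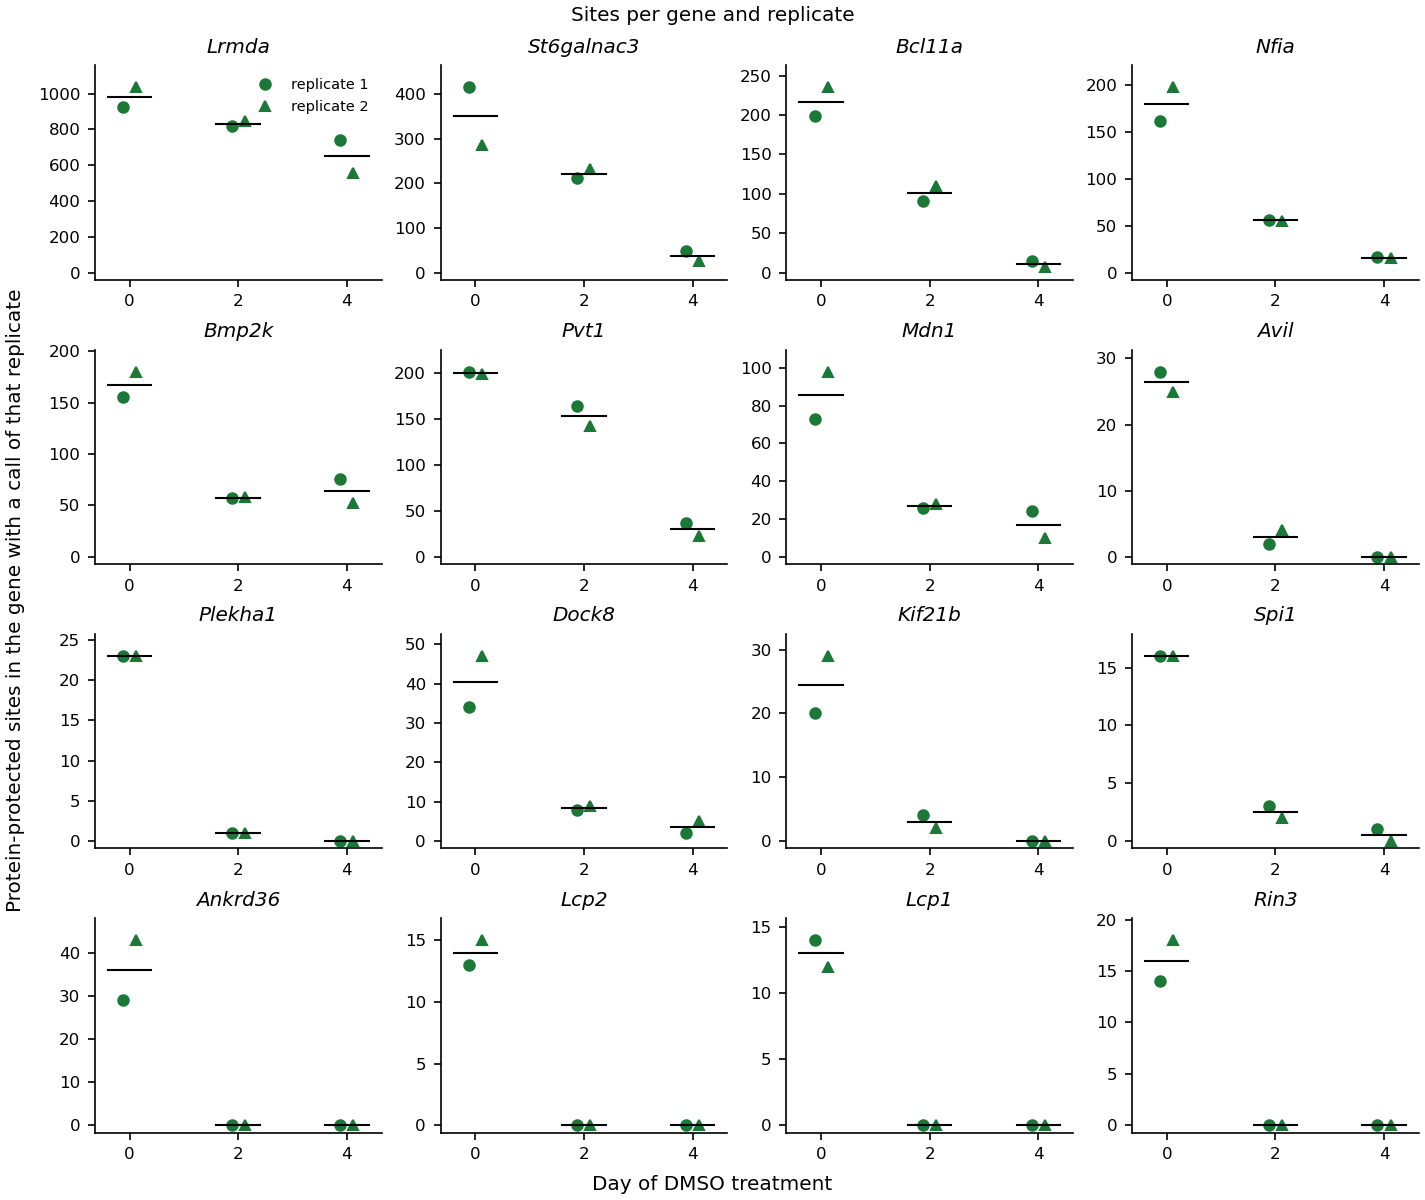
PPSs with a call of replicate 1 (circles) or replicate 2 (triangles) in 16 genes with lost sites, by day of DMSO treatment (x axis); bars are the mean of both replicates. The y axis is the number of PPSs and differs by gene. Ankrd36, Lcp2, Lcp1 and Rin3 have none after day 0, and Bmp2k is the gene whose day 4 points reach above those of day 2.

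Over all 44 genes with 10 or more lost sites, PPSs summed to 4777 and 5069 in the day 0 replicates, 2654 and 2742 at day 2, and 1774 and 1343 at day 4. In 43 of the 44, both day 2 replicates were below both day 0 replicates, and in 43 both day 4 replicates were. Both day 4 replicates were below both day 2 replicates in 35. The share of all 6069 genes with such gaps was not computed. Over all 6069 genes with a replicated day 0 site the sums changed little by comparison, at 74902 and 74991, then 83102 and 82686, then 84024 and 72793. The 44 genes were chosen by loss, so their fall is a description. Without ssRNase replicate 2 they held 267 lost sites, of 2056 in 1437 genes.

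The lost site with the highest score lay in an intron of Fam129a, a stress-response gene (chromosome 1, 151651104 to 151651680, plus strand). It was 577 nt long with a score of 76.84 and 8 calls, 3 of each ssRNase replicate and 2 of dsRNase replicate 2, and its nearest later PPS was 9632 nt away. Further high-scoring lost sites lay in Jade1 (a subunit of a histone acetyltransferase complex, 59.36), Adcy7 (an adenylyl cyclase, 55.48), Gml2 (53.72), Usp11 (a deubiquitinase, 50.87) and Plekha1 (47.68). Dock2 (an exchange factor for Rac in blood cells, 43.66), Mdn1 (43.58), Ero1l (an oxidase of the endoplasmic reticulum, 43.41) and Derl1 (a protein of endoplasmic reticulum degradation, 42.94) followed. In Derl1 a day 2 PPS lay 35 nt away, whereas in Gml2 the nearest was 100260 nt away.

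Stretches without an annotated gene on their strand held some of the strongest clusters. The 367 lost sites that touch no gene on their strand fell into 159 stretches with gaps of at most 50000 nt, of which 12 held 5 or more sites and 179 sites in all. The largest, on chromosome 17 (91390964 to 91507252, plus strand), held 57 replicated sites, and all 57 were lost. It had 84 and 102 PPSs in the day 0 replicates and none at day 2 or day 4, and the nearest later PPS on its strand was 2802887 nt away. No GENCODE or RefSeq gene lies there on either strand in the tables used. Its sites had a median length of 102 nt, 26 had ssRNase calls only and 31 both, and the highest score was 56.46, at the site printed above.

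On chromosome 12 (77135924 to 77191588, minus strand), all 36 replicated sites were lost, with 64 and 65 PPSs at day 0 and none later. RefSeq places the predicted gene Gm40446 there, with either strand searched. On chromosome 6 (143835456 to 143874210, plus strand), 25 of 30 were lost, with 51 and 60 PPSs at day 0, 1 and 5 at day 2 and none at day 4. RefSeq has Sox5 there, again with either strand searched. The site printed above from this stretch is antisense to an annotated gene. A pair of smaller stretches, on chromosome 6 (66067034 to 66125147, minus strand) and chromosome 9 (58337038 to 58369404, plus strand), lost 11 of 11 and 10 of 10 sites and held no later PPS. Of the 5 stretches, 3 lie on plus and 2 on minus.

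Gene lists were then set beside the 14.4% of all protein-coding genes. Proliferation genes were not uniform. The lists were chosen with earlier results known. Of 61 cell cycle and mitosis genes with a replicated day 0 site, 35 held a lost site (57.4%, against 38.3% of all 5784 such protein-coding genes), and 82 of 400 sites were lost, or 20.5% (16.8 to 24.7). The excess of 6.09 points over all protein-coding genes was 4.84 points without day 0 ssRNase replicate 2, with an interval that includes 0 (-0.0133 to 10.9). Plus-strand genes of the list lost 28.4% and its minus-strand genes 10.7%, where all protein-coding genes had 15.8% and 12.5%, so the list lay above all genes on one strand and below on the other. Cdk6, a kinase of G1 phase (16 of 45 lost; 86 and 120 PPSs at day 0, 51 and 48 at day 2, 38 and 23 at day 4), and Kif21b (9 of 9) led the list. Without day 0 ssRNase replicate 2, 2 lost sites of Cdk6 and 2 of Kif21b remained. Kif21b, Kif1b and Kif1c, which the search for kinesins included, are motors of transport rather than of mitosis. Without Cdk6 the share was 18.6%, and among unreplicated sites 40.9% (replicate 1) and 41.1% (replicate 2) had no later PPS, against 35.2% and 36.7% of all protein-coding genes. DNA replication genes lost 29 of 214, or 13.6% (9.60 to 18.8), near the share of all genes, led by Pola1 (DNA polymerase alpha, 7 of 37) and Mcm5 (a subunit of the replicative helicase, 4 of 11). Mcm5 held 20 and 24 PPSs at day 0, 17 and 16 at day 2 and 6 and 4 at day 4.

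Ribosome assembly factors lost 53 of 272 sites, or 19.5% (15.2 to 24.6), in 31 of 54 genes (57.4%, against 38.3% of all protein-coding genes). No single gene led them, since the top gene held 4 lost sites. Nop58, a core protein of box C/D snoRNPs, lost 4 of 20, and Utp20, a factor of small subunit assembly, lost 4 of 4 and went from 10 and 13 PPSs at day 0 to 2 and 0 at day 2 and day 4 alike. The excess over all genes was 5.08 points overall (0.790 to 10.2). It was 5.08 for plus-strand (-0.284 to 11.7) and 4.32 for minus-strand genes (-1.91 to 13.1), and 5.48 without ssRNase replicate 2 (-0.0692 to 12.6), and each of these 3 intervals includes 0. Unreplicated sites of this list had no later PPS in 54.8% (replicate 1) and 50.4% (replicate 2) of cases. By contrast ribosomal protein genes lost 16 of 178, or 8.99% (5.61 to 14.1), with Rps19 (3 of 9) and Rpl3 (2 of 10) leading, all 5 in introns. Translation factors lost 35 of 297, or 11.8%, led by Eif4e (the cap-binding protein, 6 of 16) and Eif3c (4 of 14).

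SR protein and hnRNP genes and erythroid genes lost few sites. SR protein and hnRNP genes lost 14 of 399, or 3.51% (2.10 to 5.80), with 2 each in Hnrnpd and Hnrnpr. The share was 4.12% for plus-strand and 2.93% for minus-strand genes. Erythroid genes lost 9 of 216, or 4.17% (2.21 to 7.73), with 2 each in Rhag (a membrane protein of the Rh complex) and Add2 (adducin, of the membrane skeleton). Their PPSs rose from 485 and 477 at day 0 to 1645 and 1484 at day 4, and 13.0% and 9.69% of unreplicated sites had no later PPS. Histone genes lost 0 of 65 sites, which allows a share of up to 5.58% by the Wilson interval. The 1 replicated globin site and the 21 of Itga2b, the gene with such sites among the markers of other blood cells, were kept.

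Progenitor and leukaemia regulators lost 53 of 480 sites, or 11.0% (8.54 to 14.2), and differed among themselves. Spi1 lost 9 of 9, while Runx1, a core factor of blood formation, lost 10 of 139 and kept its PPSs, with 293 and 252 at day 0 and 259 and 252 at day 4. Myb, a proto-oncogene of progenitors and the next gene of the list, lost 7 of 11 and went from 43 and 30 PPSs at day 0 to 9 in each replicate at day 2 and 3 and 0 at day 4. Its plus-strand genes lost 23.7%, against 15.8% of all protein-coding genes, and its minus-strand genes 7.83% against 12.5%.

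The other lists lay within a few points of all genes. Chromatin enzymes lost 75 of 625, or 12%, with Hdac7 (a class IIa deacetylase, 12 of 27) and Chd3 (a remodeller of the NuRD complex, 7 of 13) leading. DEAD and DEAH box helicases lost 32 of 246, or 13.0%, led by Dhx15 (4 of 21) and Ddx6 (3 of 15). Chaperones lost 25 of 163, or 15.3%, led by Hspa9 (6 of 21) and Dnajc2 (2 of 5). Glycolysis genes lost 15 of 119, or 12.6%, and 10 of these were in Slc2a3 (a glucose transporter, 5 of 11) and Hk2 (hexokinase 2, 5 of 6). Hk2 held 18 and 15 PPSs at day 0, 4 and 3 at day 2 and none at day 4.

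**Figure D4:**
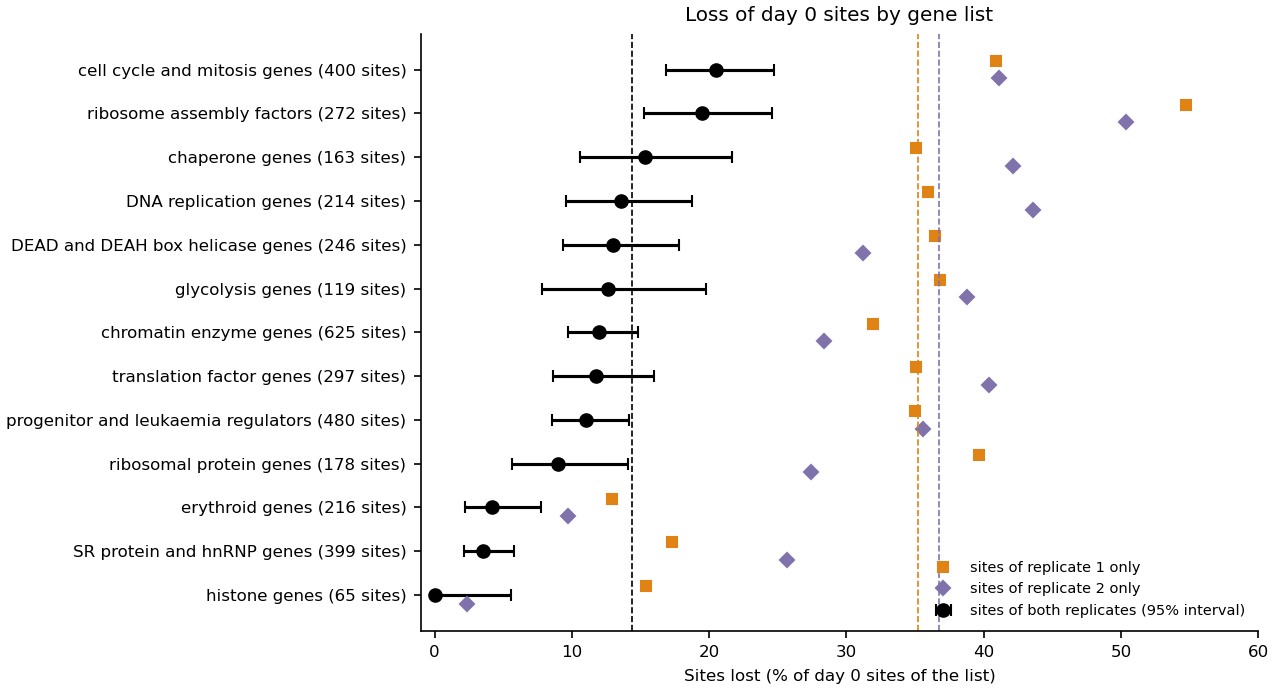
Percentage of day 0 sites without a later PPS (x axis) in 13 gene lists with at least 50 replicated sites. Black points are replicated sites with Wilson 95% intervals, and orange squares and purple diamonds are sites of replicate 1 only and replicate 2 only. Dashed lines are all protein-coding genes (14.4%, 35.2% and 36.7%). Ribosome assembly factors and cell cycle genes lie right of the line in all 3 sets, while SR protein and hnRNP, erythroid and histone genes lie left of it.

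In base composition lost and kept sites differed by about 1 point or less. Mean G content was 26.0% ± 6.19 in lost and 26.9% ± 6.23 in kept sites (SD over 5123 and 30248 sites), a difference of -0.911 points (-1.09 to -0.727). U differed by 0.725 points (0.506 to 0.943), C by 0.564 points (0.380 to 0.749) and A by -0.378 points (-0.595 to -0.160). Within CDS sites without intron, A differed by -1.24 points and C by 1.30 points. Repeat-masked bases made up 6.33% of lost and 6.99% of kept sequence.

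Sequence words were searched on the transcribed strand as written, on that strand alone, with overlaps of the same word counted. The word TGTANATA stood for the element bound by Pumilio proteins. AU-rich elements were searched as TATTTAT, and the poly(A) signal as AATAAA. Runs of a single base were TTTTTT for U, AAAAAA for A, CCCC for C and GGGG for G. The GU repeat was written GTGTG and the pyrimidine repeat CTCTCT. The word of hnRNP A1 was TAGGG, the purine-rich exonic enhancer was GAAGAA, and the core of the m6A consensus was GGACT. The 5' splice site was GTAAGT, and part of the histone 3' stem-loop was CTTTTCAG. Since kept sites are longer and hold more words of any kind, occurrences per 1000 nt are given. GAAGAA occurred 0.921 times per 1000 nt in lost and 1.06 times in kept sites, and in 6.56% of lost against 9.20% of kept sites. In CDS sites without intron it occurred 1.64 and 2.03 times per 1000 nt, and 10.3% of lost and 14.97% of kept sites held it (-4.71 points, -6.51 to -2.70). GGGG occurred 2.81 and 3.21 times, GTAAGT 0.258 and 0.340 times and TTTTTT 0.343 and 0.512 times. GTGTG (2.15 and 2.12), GGACT (1.73 and 1.76) and TGTANATA (0.194 and 0.180) were nearly level. TATTTAT, in 52 lost and 225 kept sites, occurred 0.126 and 0.0782 times per 1000 nt. A word match is not a bound factor.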

How the data were processed

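The authors trimmed reads with cutadapt 1.2.1, aligned them to mm10 with TopHat 2.0.10 keeping several hits per read, collapsed duplicates, called PPSs with a modified CSAR (Poisson test of protein-present against protein-removed coverage, 5% FDR), and deposited 1 merged list per day with a score per PPS. The scale of the score is not given in the sources used here. Raw read totals of the 24 libraries are stated in the study as a range only, and the lists hold neither mapped reads per library nor reads per PPS. Lowest scores were 5.4 in the day 0 list and 10.8 in replicated sites.

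Coordinates were checked against exon ends (0-based starts) and are printed 1-based. Sites overlapped when they shared 1 nt or more and the strand. Classes, genes and sequence came from GENCODE M21 and GRCm38, sequence credited to RefSeq. Shares carry Wilson and their differences Newcombe 95% intervals (counting error only), and no p-value was computed, since sites are not replicates. Members and lists were chosen with earlier results of these data known. Named genes were the protein-coding genes with the most lost sites, with the most exonic lost sites and with the most lost sites but no later PPS (5 each), the 10 highest-scoring lost sites, 3 noncoding genes and 2 genes per list, without predicted symbols. Of 5000 simulated sites with 1500 planted overlaps, 1500 were found and 0 miscalled. Python 3.11.15, pandas 2.3.3, numpy 2.4.6, pysam 0.24.0 and bedtools 2.31.1 were used. Alternatives changed the overlap rule, the later list, the strand, the nuclease, the class rule, the replicates and the weight of genes. A few genes are not reported here.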

Additional observations from a re-analysis of the deposited data

How the results depend on the processing

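Differences below are lost minus kept sites in percentage points, in the order CDS, intron, 3' UTR, 5' UTR, dsRNase-only share and mean G content, and a class is named where only some moved beyond its interval. The cause of these shifts was not tested. When a later PPS within 50 nt also counted, the CDS difference was -8.32, intron 1.43, 3' UTR -3.68, dsRNase-only 2.10 and G -0.707, and 96.4% of lost sites had a later PPS in their gene. When a later PPS had to cover at least 50% of the site, 10637 sites were lost, with CDS 0.521, 3' UTR 2.02, 5' UTR -0.305, a median length of 89 nt, a median score of 13.75 and 98.7% in genes with a later PPS. When only later PPSs with both replicates counted, 16656 were lost, with CDS 0.557, intron -2.15, 3' UTR 1.28, dsRNase-only 7.48, G -1.20, medians of 76 nt and 13.79, and 94.3% in such genes. With later PPSs of 20 to 40 nt left out, CDS was -2.15, intron -2.81, 3' UTR 0.489, dsRNase-only 6.66 and G -1.16. With day 0 PPSs of that length included, the median length was 71 nt.

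Among sites at or above the median score of replicated sites 1442 sites were lost, with intron -3.11, dsRNase-only 1.80 and medians of 84 nt and 20.32. With both replicates from the same nuclease, dsRNase-only was 7.10 and the median score 13.75. Ignoring day 0 ssRNase replicate 2 left 2251 sites, with CDS -4.38, intron -3.88, 3' UTR 0.653, dsRNase-only 12.5 and a median score of 12.39. Sites with ssRNase calls only drop out in that setting, so its dsRNase-only value sets dsRNase-only sites against sites of both nucleases. The nuclease of a site was still named with the calls of the ignored set. Weighting kept sites to the lengths of lost sites gave intron 2.18 and dsRNase-only 2.77. With 1 class per site, CDS was -4.69, intron 4.24 and 3' UTR 0.170. With ssRNase calls only, intron was 2.13 and 3' UTR -2.40, and with dsRNase calls only CDS was -4.38, intron 2.10, 3' UTR -2.87 and 5' UTR -0.0942.

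The following settings were chosen after seeing the data. On the plus strand 3229 sites gave intron 1.76, 3' UTR -2.44, 5' UTR -2.16, dsRNase-only 2.43 and a median of 74 nt, and progenitor regulators turned to 7.89 points above all protein-coding genes. On the minus strand 1894 sites gave CDS -4.71, intron -4.83, 3' UTR 1.28, 5' UTR -0.447, dsRNase-only 9.45 and a median of 70 nt, and cell cycle genes turned to -1.85 points. With each gene counted as 1 value, CDS was -8.06, intron 4.03, 5' UTR -3.50 and G -1.60. In genes with lost and kept sites, CDS was -3.72, intron -2.10, 3' UTR 1.09, 5' UTR -0.613 and G -0.587. Without genes of 10 or more lost sites, CDS was -3.95, intron -5.48, 3' UTR 0.799, dsRNase-only 7.25 and the median length 71 nt.

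Leaving out 1 replicate of 1 day gave 6272 to 19827 lost sites, where the highest counts, 19827 and 19455, are those without day 0 replicate 1 or 2, since members then need 1 replicate only. Over these settings CDS ran from -10.6 to -3.57, intron from -2.04 to 5.73, 3' UTR from -3.18 to 0.539, 5' UTR from -1.97 to -0.914, dsRNase-only from 2.97 to 7.27 and G from -1.26 to -0.621. The median length ran from 58 to 74 nt, the median score stayed at 13.64, and the share in genes with a later PPS ran from 96.98% to 97.7%. That share uses no kept sites, so weighting them gave no value for it. No paired analysis was possible because no result here comes from a test between groups of samples, only from shares of sites. The lists hold no reads per site, so a weak site that fell below the calling threshold and one that was gone cannot be told apart.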
